A study of Mus musculus with 62 samples.

Results

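The cerebellum of mice carrying a melanoma that causes cachexia, the wasting of muscle and fat seen in cancer, was followed over weeks within that treatment alone. Members were the libraries whose labels name injection of cachectic melanoma cells (CAC), 22 of the 62 libraries in the series, with 5 at 2, 4 and 6 weeks (wk) after injection and 7 at 8 wk. Bulk RNA of the whole cerebellum was measured as TPM, an expression unit normalised for transcript length and for the total of each library. The comparison series were 20 libraries from mock injected mice and 20 from mice given non-cachectic melanoma cells (NCAC), with 5 at each of the same weeks.

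All mice were female and 2 months old at injection, so week after injection and age rise together in every treatment. The sample fields give the strain as C57BL6/J and the series design gives NCI Ath/nude, so the strain could not be settled. A treatment field that names cachectic cells for every sample was not used, and groups came from the sample descriptions. The labels do not tie libraries to single animals, so p-values measure the spread between these libraries.

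The CAC libraries resembled one another in broad measures and differed in tissue carried along. TPM has a fixed total in each library, so sequencing depth is unknown. Between 14259 and 14491 genes reached 1 TPM, and mitochondrially encoded genes took 17.1 to 20.9% of TPM. Markers of the labelled tissue were high in all 22 libraries, with the Purkinje cell gene Pcp2 at 430 to 576 TPM and the granule cell gene Gabra6 at 868 to 1170 TPM. Ttr, made by the choroid plexus that lies against the cerebellum, ranged from 13 to 6860 TPM, and the 17 choroid plexus markers summed to 177 to 8250 TPM. The 10 red blood cell markers summed to 287 to 20600 TPM, the highest in replicate 3 of 8 wk, a library that stood apart in several results below.

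In inflammation and cancer, cytokines such as interleukin 6 act on brain vessels and glia through the transcription factor STAT3 and induce acute phase proteins. Glucocorticoid hormone, released in stress and undernutrition, enters the brain and acts through a nuclear receptor that switches on a set of genes shared by many cell types. Oligodendrocytes wrap axons in myelin, a membrane rich in cholesterol that is made largely within the brain, and Bergmann glia are the specialised astrocytes that surround Purkinje cells.

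Over 2 to 8 wk of cachectic melanoma, acute phase and glucocorticoid-responsive genes rose, and myelin and cholesterol synthesis genes fell. The largest slopes among called genes were those of Etnppl, an astrocyte enzyme that degrades phosphoethanolamine, at 0.41 ± 0.07 log2 units per week, and Plin4, a lipid droplet coat protein, at 0.40 ± 0.10 (SE). The lowest were those of Fabp7, the fatty acid binding protein of Bergmann glia, at -0.38 ± 0.07, and Opalin, a membrane protein of oligodendrocytes, at -0.30 ± 0.06. A slope is the change of log2(TPM + 1) per week in a linear fit over the 22 CAC libraries with limma, and a gene was called to rise or fall where its Benjamini-Hochberg adjusted p was under 0.05. Of 14399 genes tested, 1787 were called (12.4%), 873 that rose (6.06%) and 914 that fell (6.35%), and 3979 were at an unadjusted p under 0.05. The share that rose was 48.9% of the called genes, and 38.4% when mitochondrially encoded genes were removed before TPM was rescaled. The median slope of all tested genes was -0.00102.

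The change was gradual in the group means. Among the 873 genes that rose, the median difference between neighbouring weeks was 0.12 from 2 to 4 wk, 0.10 from 4 to 6 wk and 0.085 from 6 to 8 wk, on the log2 scale. Among the 914 that fell, it was -0.10, -0.081 and -0.078. The means of the 4 weeks stood in strict order in 653 of the genes that rose (74.8%) and in 681 of those that fell (74.5%), beside 10.8% and 12.2% of all tested genes. These shares are descriptions, since a slope past the threshold favours ordered means. The median change from 2 to 8 wk was 0.32 in genes that rose and -0.27 in genes that fell, and 183 and 80 of them changed by at least 1.5-fold.

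No step between neighbouring weeks gave a call. Limma called 0 genes from 2 to 4 wk (0%), with 845 at an unadjusted p under 0.05 and a smallest adjusted p of 0.0916. From 4 to 6 wk it called 0 genes, with 735 below 0.05 before adjustment, and from 6 to 8 wk 0, with 863. The difference between the last and the first step, a measure of curvature, was called for 0 genes, with 551 at an unadjusted p under 0.05. The end points gave calls: between 2 and 8 wk, 1472 genes differed (10.2%), 714 higher at 8 wk (4.96%) and 758 lower (5.26%). The 7 libraries of 8 wk all lay above the 5 of 2 wk in 306 genes (2.13%) and all below in 278 (1.93%). The count between 2 and 8 wk was 712, 979 and 823 without replicate 1, 4 or 5 of 2 wk, and 921 and 909 without replicate 1 or 6 of 8 wk. The trend count fell to 33 in a fit to 2, 4 and 6 wk alone, which leaves 15 libraries. Its 33 calls held Etnppl (slope 0.57) and Socs3 (0.19) among genes that rose and Ntf3 (-0.24) and Marcksl1 (-0.16) among those that fell.

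**Figure D1:**
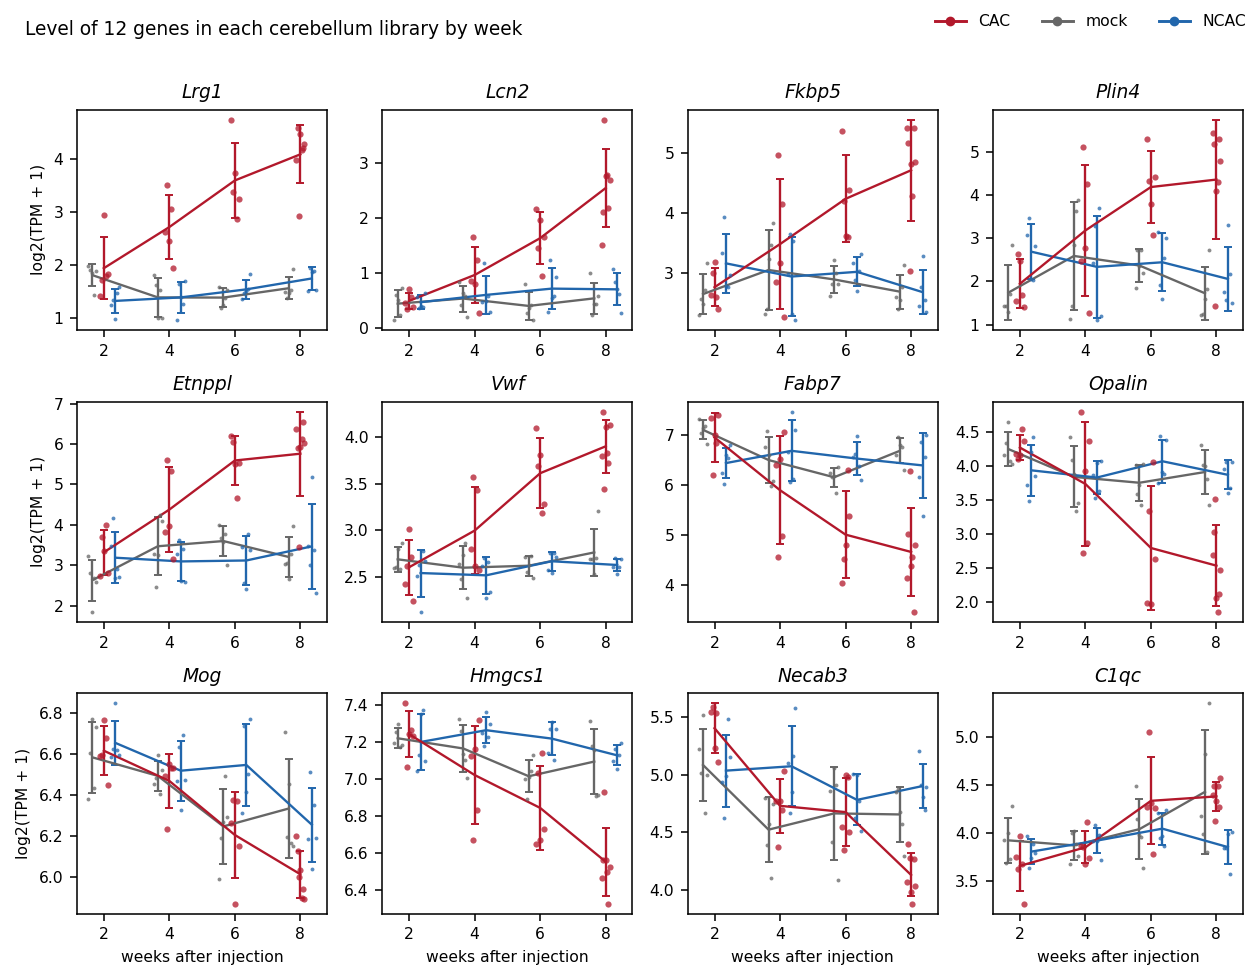
Level of 12 genes as log2(TPM + 1) against weeks after injection, 1 point per library, with lines through group means and bars of 1 SD, in CAC (red), mock (grey) and NCAC (blue). In CAC, Lrg1, Lcn2, Fkbp5, Plin4, Etnppl and Vwf climb and Fabp7, Opalin, Mog, Hmgcs1 and Necab3 descend, while C1qc climbs in mock as well.

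Gene lists here and below were chosen with earlier results of these data known, so their counts are descriptions. Of all tested genes 6.06% rose and 6.35% fell. Acute phase and cytokine response genes rose as a group. Of 19 tested members, 14 rose and 0 fell, and the median slope was 0.11, beside a median of -0.00102 over all tested genes. The median slope of the same list was 0.016 in mock and 0.021 in NCAC. Lrg1, a glycoprotein that acute inflammation induces, was at 1.65, 2.30, 6.64, 2.45 and 2.57 TPM in the 5 libraries of 2 wk. It was at 5.15, 10.3, 4.47, 7.28 and 2.81 TPM at 4 wk and at 25.6, 9.34, 12.3, 6.30 and 8.47 TPM at 6 wk. At 8 wk the lowest, median and highest were 6.57, 17.3 and 22.9 TPM. Replicate 3 was the high library at 2 wk and replicate 3 the low one at 8 wk, and those alone brought the 2 groups into overlap. The slope was 0.36 ± 0.05 (SE; limma adjusted p = 2.15e-04) and the difference between 8 and 2 wk was 2.15 on the log2 scale.

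Lcn2, which binds iron-carrying siderophores, was at 0.369, 0.273, 0.635, 0.478 and 0.302 TPM at 2 wk and at 0.803, 2.15, 0.743, 1.36 and 0.207 TPM at 4 wk. It was at 3.49, 1.73, 2.90, 0.922 and 2.14 TPM at 6 wk, and from 1.85 to 12.9 TPM with a median of 5.51 TPM at 8 wk. No library of 2 wk reached the lowest of 6 or of 8 wk, and the 8 wk library at 12.9 TPM was replicate 3, which was the lowest of its group for Lrg1. Its slope was 0.35 ± 0.05 (limma adjusted p = 1.19e-04). Ch25h, which makes the signalling oxysterol 25-hydroxycholesterol, had a median of 0.354 TPM at 2 wk, 0.949 at 4 wk, 2.49 at 6 wk and 4.68 at 8 wk, with a slope of 0.30 ± 0.04 (adjusted p = 2.49e-04). The filter was a mean of at least 1 TPM over all 62 libraries, so the higher later libraries helped Lcn2 and Ch25h to enter. Entry in this way favours a rise, which also bears on the count of acute phase genes that rose. Serpina3h, annotated as a transcribed pseudogene and not a member of the list, had a slope of 0.29. The protease inhibitor Serpina3n had a slope of 0.15. The call of Serpina3n (adjusted p = 0.0281) was lost in 6 of the 22 fits that left out a library.

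Of the signalling genes of the same pathway, Socs3, the STAT3-induced inhibitor of cytokine receptors, had a median of 1.30 TPM at 2 wk, 1.74 at 4 wk, 2.66 at 6 wk and 3.51 at 8 wk. Its 2 wk libraries (1.06 to 1.54 TPM) and 8 wk libraries (2.87 to 4.72 TPM) did not overlap, and its slope of 0.16 ± 0.02 had the smallest adjusted p of the trend (7.62e-05), a value shared with Ly6a, Necab3 and Mog. Slopes of the receptors were 0.12 for Il1r1, 0.11 for Osmr and 0.083 for Il6ra. The slope of Stat3 itself was 0.042 (adjusted p = 0.00907), from a median of 17.6 TPM at 2 wk to 21.98 at 8 wk. Cebpd and Cebpb, transcription factors of the acute phase, had slopes of 0.27 and 0.071, and Cebpb (adjusted p = 0.0307) lost its call in 6 fits that left out a library. Icam1, an adhesion molecule of inflamed endothelium, had a slope of 0.19. Gfap, the intermediate filament of reactive astrocytes, had a slope of 0.074 at an adjusted p of 0.0401, a call lost in 10 of those 22 fits. The cytokines themselves were scarce in the tissue, with Il6 at most 0.153 TPM, Tnf at most 0.116 TPM and Il1b at most 1.30 TPM in any CAC library.

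Glucocorticoid-responsive genes were the list with the largest share of members that rose, beside 6.06% of all tested genes. That rank is a description, since the lists were chosen with earlier results of these data known. Of 24 tested, 20 rose and 0 fell, with a median slope of 0.18 in CAC, -0.00515 in mock and -0.038 in NCAC. Fkbp5, a cochaperone that restrains the glucocorticoid receptor, was at 5.23, 6.99, 8.08, 5.05 and 4.27 TPM at 2 wk and at 6.20, 30.5, 8.01, 16.8 and 3.80 TPM at 4 wk. It was at 40.6, 17.4, 11.3, 11.2 and 19.9 TPM at 6 wk, and from 7.14 to 42.0 TPM with a median of 28.0 TPM at 8 wk. At 4 wk replicates 2 and 4 were already in the range of 6 wk while the other 3 were in or below the range of 2 wk. At 8 wk replicate 3, at 7.14 TPM, was the only library in the range of 2 wk. The slope of Fkbp5 was 0.33 ± 0.07 (limma adjusted p = 0.0029). Mock libraries varied at 4 wk too. Their mean log2 level over the 24 genes had a lowest, median and highest of 4.244, 4.824 and 5.433 at 4 wk. At 2 wk these were 4.396, 4.468 and 4.955. The mean of Fkbp5 changed from 2 to 4 wk by 0.72 in CAC, 0.40 in mock and -0.22 in NCAC, on the log2 scale. That of Plin4, a further member, changed by 1.23, 0.85 and -0.35.

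Plin4 showed the same libraries. It was at 1.91, 5.24, 4.51, 2.20 and 1.65 TPM at 2 wk, at 4.52, 33.7, 5.89, 18.2 and 1.41 TPM at 4 wk and at 38.5, 19.1, 12.8, 7.44 and 20.5 TPM at 6 wk. At 8 wk it ranged from 1.70 to 42.2 TPM with a median of 26.4 TPM. Replicates 2 and 4 of 4 wk were high, and replicate 3 of 8 wk was at the 2 wk level. The slope of 0.40 (adjusted p = 0.011) was 0.48 without that library. The mean log2 level of the 24 listed genes was 4.87 in replicate 3 of 8 wk and 5.56 to 6.23 in the other 6 libraries of that week. The acute phase gene Lcn2 and the pseudogene Serpina3h were highest in that same library, at 12.9 and 11.5 TPM. It also held the highest sum of red blood cell markers. The part of blood carried with the tissue in these values was not tested.

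Other members of the list act in several processes. The metallothioneins Mt1 and Mt2, which bind zinc and copper, rose from medians of 831 and 499 TPM at 2 wk to 2060 and 1490 TPM at 8 wk (slopes 0.21 and 0.24). Sgk1, a kinase of ion transport, rose from a median of 46.0 to 96.4 TPM, and its 2 wk libraries (37.9 to 55.6 TPM) lay below all 8 wk libraries (63.7 to 124 TPM). Tgm2, a transglutaminase, rose from a median of 8.996 to 20.5 TPM without overlap of 2 and 8 wk. Cdkn1a, an inhibitor of the cell cycle, had a slope of 0.21, Tsc22d3, an anti-inflammatory leucine zipper protein, 0.14, Klf9, a transcription factor, 0.065, and Per1, a clock gene that the hormone also induces, 0.15. Map3k6, a stress kinase, had a slope of 0.35 and Sult1a1, a sulfotransferase, 0.33. Zbtb16 and Hif3a, both transcription regulators, had slopes of 0.27 and 0.24. Across fits that left out 1 library, 17 to 22 of the 24 members rose, and 16 rose with the choroid plexus level as a covariate, where Zbtb16, Per1 and Hif3a lost their calls.

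Promoter windows are shown for the 3 listed genes in which the paired hexamer of the glucocorticoid receptor was found. The 250 bases before each RefSeq start (build GRCm38.p6, the same coordinates as mm10) were searched on both strands for 17 motifs, and 20 of the 24 genes had an entry. The full palindrome, AGAACA followed after 3 bases of any kind by its reverse complement TGTTCT, was found in 3 of 32851 promoters (0.00913%), one of them an internal start of Sgk1. The looser palindrome, GNACA followed after 3 bases by TGTNC, which also matches the full one, was found in 127 (0.387%), among them those of Sgk1, Mt1 and Map3k6. By gene it was found in 3 of the 20 glucocorticoid-responsive genes, beside 0.44% of all 27025 genes with an entry. It was also found in 1 of 23 acute phase genes, Serpina3n, and in 0 of 17 cholesterol and 0 of 12 myelin genes. Sgk1 had 6 promoters searched, and Mt1 and Map3k6 had 1 each. Capitals mark the match.
Sgk1, chr10:21993676-21993740, plus strand, outside all annotated exons and within the span of Sgk1: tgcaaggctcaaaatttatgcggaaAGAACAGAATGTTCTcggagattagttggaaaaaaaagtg
Mt1, chr8:94178970-94179032, plus strand, upstream of the gene: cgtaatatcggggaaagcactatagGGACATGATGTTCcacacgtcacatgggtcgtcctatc
Map3k6, chr4:133240612-133240674, plus strand, upstream of the gene: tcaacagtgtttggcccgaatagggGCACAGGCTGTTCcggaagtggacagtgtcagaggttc
A match is a description of the letters and not evidence of binding.

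Fuel, insulin and atrophy genes moved in part. Of 19 tested FoxO, atrophy and autophagy genes, 8 rose and 1 fell. Leaving out 1 library gave 4 to 11 that rose, the fewest without replicate 5 (4) or 2 (5) of 2 wk, and the choroid plexus covariate gave 4. Foxo1, a transcription factor held back by insulin signalling, rose from a median of 11.6 to 23.6 TPM (slope 0.14, adjusted p = 0.00325). Eif4ebp1, a repressor of translation, had a slope of 0.10 and Irs2, an insulin receptor substrate, 0.068. Fbxo32, a ubiquitin ligase of muscle atrophy, fell (slope -0.051, adjusted p = 0.0196), a call lost in 1 fit that left out a library. Of 18 fasting and lipid fuel genes, 3 rose, Plin4, Pdk4 and Ucp2, and 1 fell, with a list median of 0.00787. Plin4 and Pdk4 are counted in the glucocorticoid list too. Pdk4, which slows entry of pyruvate into the mitochondrion, rose from a median of 11.2 to 33.2 TPM (slope 0.24). Ucp2, a mitochondrial carrier, had a slope of 0.10. Of 18 hypoxia genes 3 rose and 1 fell, and of 17 growth arrest and p53 target genes 3 rose and 1 fell. These counts include Cdkn1a and Hif3a, also of the glucocorticoid list, and the glucose transporter Slc2a1, also of the endothelial list.

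**Figure D2:**
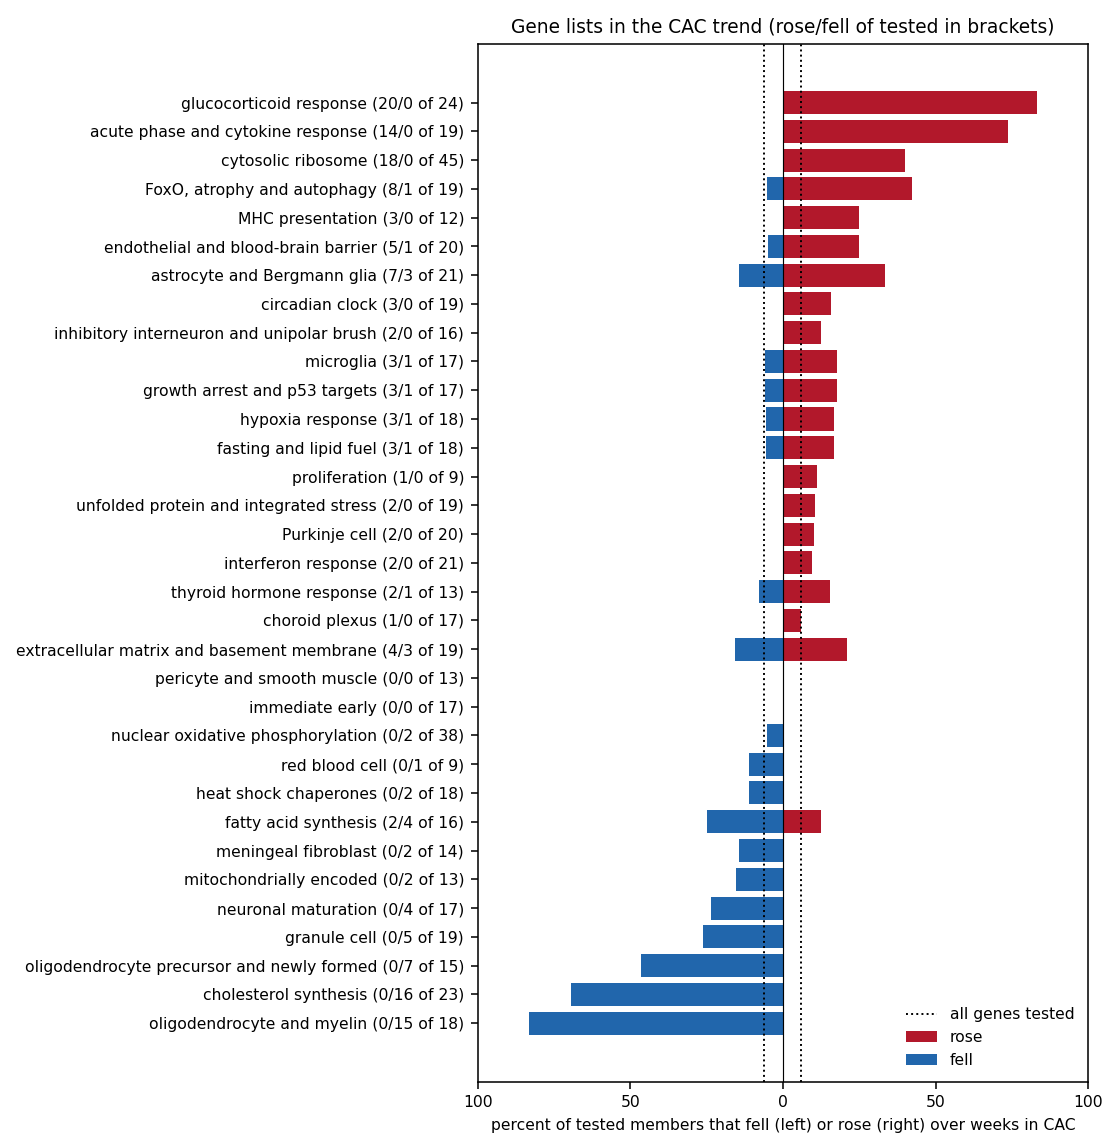
Percent of tested members of each gene list that rose (red, right) or fell (blue, left) over weeks in CAC by limma, for the 33 lists with at least 9 tested members, with counts in brackets. Dotted lines mark the shares of all tested genes, 6.06% that rose and 6.35% that fell.

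Astrocyte and Bergmann glia genes moved in both directions. Of 21 tested, 7 rose and 3 fell, with a median slope of -0.00563, and 4 rose and 2 fell with the choroid plexus covariate. Etnppl was at 5.61, 12.1, 9.30, 14.9 and 6.06 TPM at 2 wk, at 13.1, 47.5, 14.8, 39.5 and 7.90 TPM at 4 wk and at 72.2, 65.4, 44.7, 24.4 and 45.2 TPM at 6 wk. At 8 wk it ranged from 9.99 to 91.5 TPM with a median of 64.1 TPM. As for Fkbp5, replicates 2 and 4 of 4 wk were high and replicate 3 of 8 wk was in the range of 2 wk, and all libraries of 6 wk lay above those of 2 wk. The mean of Etnppl changed from 2 to 4 wk by 1.06 in CAC, 0.84 in mock and -0.092 in NCAC, on the log2 scale. Its slope in CAC had a limma adjusted p of 0.00151. Phyhd1, a dioxygenase, had a slope of 0.23, Gjb6, the gap junction protein connexin 30, 0.12, and Glul, the glutamine synthetase that clears glutamate, 0.11.

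Fabp7 moved the other way in the same libraries. It was at 160, 72.2, 127, 113 and 167 TPM at 2 wk, at 82.9, 22.5, 90.2, 30.5 and 131 TPM at 4 wk and at 15.6, 21.98, 27.0, 77.7 and 40.6 TPM at 6 wk. Its 8 wk libraries ran from 10.1 to 77.1 TPM with a median of 22.6 TPM. The high 8 wk library was replicate 3, the next was at 31.3 TPM, and replicates 2 and 4 were the low ones at 4 wk. The mean of Fabp7 changed from 2 to 4 wk by -1.05 in CAC, -0.60 in mock and 0.24 in NCAC, on the log2 scale. Its slope of -0.38 in CAC had a limma adjusted p of 0.00196. Tnc, a matrix glycoprotein of Bergmann glia, fell from a median of 11.1 to 3.16 TPM (slope -0.22), and Aqp4, the water channel of astrocyte endfeet, from 258 to 160 TPM (slope -0.11). In bulk tissue, fewer cells of a type and less RNA per cell cannot be told apart.

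Oligodendrocyte genes fell as a group. Of 18 tested myelin and oligodendrocyte markers 15 fell and 0 rose, with a median slope of -0.081 in CAC, -0.037 in mock and -0.027 in NCAC. Opalin was at 17.1, 16.1, 16.9, 22.4 and 19.7 TPM at 2 wk, at 26.9, 5.58, 14.2, 6.27 and 19.7 TPM at 4 wk and at 2.94, 9.09, 2.90, 15.7 and 5.19 TPM at 6 wk. The 8 wk range was 2.61 to 10.4 TPM with a median of 4.55 TPM. All libraries of 6 and 8 wk lay below all of 2 wk, and at 4 wk replicates 2 and 4 were low. The mean of Opalin changed from 2 to 4 wk by -0.54 in CAC, -0.41 in mock and -0.11 in NCAC, on the log2 scale. Its slope in CAC had a limma adjusted p of 0.00242.

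Structural myelin genes changed by less. Mog, a myelin surface protein, was at 95.3, 95.8, 108, 102 and 86.4 TPM at 2 wk, at 89.0, 74.4, 92.8, 91.7 and 91.7 TPM at 4 wk and at 75.8, 81.97, 57.5, 81.8 and 70.03 TPM at 6 wk. The 8 wk range was 58.5 to 72.5 TPM with a median of 63.0 TPM. All of its libraries of 6 and 8 wk lay below those of 2 wk (slope -0.10, adjusted p = 7.62e-05). Mbp, the myelin basic protein, fell from a median of 1010 to 739 TPM (slope -0.066). The lipid enzymes Ugt8a, which makes galactocerebroside, and Fa2h, which hydroxylates its fatty acid, had slopes of -0.19 and -0.090. Of 15 genes of precursors and newly formed oligodendrocytes, 7 fell and 0 rose. Gpr17, a receptor of differentiating precursors, fell from a median of 14.0 to 5.38 TPM (slope -0.19), Enpp6, of newly formed cells, had a slope of -0.13, and Bcas1 of -0.082.

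Cholesterol synthesis genes fell with them. Of 23 tested, 16 fell and 0 rose, with a median slope of -0.048 in CAC, -0.00956 in mock and -0.00857 in NCAC. Hmgcs1, which makes the substrate of the rate-limiting step, was at 169, 133, 151, 153 and 149 TPM at 2 wk, at 138, 101, 142, 113 and 159 TPM at 4 wk and at 99.3, 130, 101, 140 and 105 TPM at 6 wk. Its 8 wk libraries ran from 79.2 to 121 TPM with a median of 90.9 TPM. All 8 wk libraries lay below all 2 wk libraries, the highest being replicate 3, and the slope was -0.11 ± 0.02 (adjusted p = 3.98e-04). Cyp51, the lanosterol demethylase, fell from a median of 38.4 to 23.1 TPM without overlap (slope -0.11), Sqle, the squalene epoxidase, from 22.5 to 12.9 TPM (slope -0.10), and Sc5d, a late sterol desaturase, from 60.1 to 47.8 TPM (slope -0.049). Srebf2, the transcription factor that drives this pathway, had a slope of -0.039 (adjusted p = 0.0205). Srebf1, its relative for fatty acid synthesis, rose (slope 0.057, adjusted p = 0.00217), and of 16 fatty acid synthesis genes 2 rose, Srebf1 and Acacb, and 4 fell. With the choroid plexus level as a covariate 12 of the 23 cholesterol genes fell, and Srebf2 and Acacb lost their calls.

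Windows of the Hmgcs1 and Sc5d promoters are shown for CCAAT, the box bound by NF-Y. Of the 17 motifs searched it was the most common among these genes. It was found on either strand in the 250 bases before a start in 16 of the 17 cholesterol genes with an entry, 37.5% of all 27025 genes with one and 33.8% of all 32851 promoters. The box was found in 12 of 20 glucocorticoid-responsive genes, 7 of 23 acute phase genes and 5 of 12 myelin genes with an entry. It was therefore not particular to the genes that fell. The other motifs were each found in at most 4 of the 17 cholesterol genes. The sterol element was found in 0 of them and its looser form in 1, beside 0.0814% and 1.22% of all genes. Capitals mark the match nearest to the start, ATTGG being CCAAT on the other strand.
Hmgcs1, chr13:119690281-119690335, plus strand, upstream of the gene: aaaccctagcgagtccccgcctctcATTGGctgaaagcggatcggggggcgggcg
Sc5d, chr9:42264301-42264349, minus strand, upstream of the gene: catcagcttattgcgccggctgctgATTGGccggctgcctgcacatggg

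Vessel genes rose in part. Of 20 tested endothelial and blood-brain barrier genes 5 rose and 1 fell, with a median slope of 0.00287. Vwf, the clotting factor stored in endothelium, was at 4.37, 5.16, 7.10, 5.56 and 3.74 TPM at 2 wk, at 5.94, 10.9, 5.13, 9.76 and 4.96 TPM at 4 wk and at 16.0, 11.9, 13.0, 8.11 and 8.75 TPM at 6 wk. The 8 wk range was 9.90 to 18.3 TPM with a median of 13.2 TPM. Every library of 6 and 8 wk was above those of 2 wk (slope 0.22 ± 0.03, adjusted p = 1.80e-04). Ly6c1, an endothelial surface protein, rose from a median of 51.4 to 94.3 TPM (slope 0.13), Slc2a1 from 105 to 141 TPM (slope 0.095), and Abcb1a, the drug efflux pump of the barrier, from 22.8 to 27.6 TPM (slope 0.039). Kdr, the main receptor of vascular endothelial growth factor, had a slope of -0.077 at an adjusted p of 0.0399, a call lost in 9 of the 22 fits that left out a library. Limma called 0 of 13 tested pericyte and smooth muscle genes, with 0 at an unadjusted p under 0.05. Of the matrix genes, Sparc, a collagen-binding protein, rose from a median of 950 to 1420 TPM (slope 0.088), while Nid1, a basement membrane linker, had a slope of -0.079 and the fibrillar collagens Col1a1 and Col3a1 -0.11 and -0.10. The calls of Col1a1 and Col3a1 were lost with the choroid plexus covariate.

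Microglial complement and antigen presentation genes rose in small number. Of 17 tested microglial genes 3 rose, C1qa, C1qb and C1qc, the subunits of the first complement component, and 1 fell, Gpr34, a microglial receptor, with a slope of -0.065. C1qc was at 12.5, 11.3, 14.8, 11.8 and 8.62 TPM at 2 wk and from 16.5 to 22.9 TPM with a median of 20.1 TPM at 8 wk, with no overlap (slope 0.13, adjusted p = 0.00169). Of 12 antigen presentation genes 3 rose, including H2-K1 (slope 0.091) and H2-Ab1 (0.14), and of 21 interferon response genes 2 rose, Ifitm3 (0.12) and Bst2 (0.14). The interferon count is near the 6.06% of all tested genes that rose. Slopes in mock were of similar size: 0.084 for C1qc, 0.12 for H2-K1, 0.13 for H2-Ab1 and 0.12 for Bst2. For these genes the difference between the CAC and mock slopes had limma adjusted p-values of 0.551, 0.773, 0.936 and 0.905. One mock library, replicate 5 of 8 wk, held H2-K1 at 91.0 TPM against 24.7 to 42.7 TPM in the other 4. Its antigen presentation genes summed to 1200 TPM against 412 to 632 TPM, and its 13 lymphocyte markers to 549 TPM against 6.36 to 21.1 TPM. In mock replicate 1 of 6 wk the lymphocyte markers summed to 107 TPM, beside 5.56 to 7.90 TPM in the other 4 and at most 13.7 TPM in any CAC library, and the part of that library in the mock slopes was not tested. Without replicate 5 of 8 wk the mock slopes were 0.048, 0.075, 0.055 and 0.11, and the adjusted p-values of the differences 0.177, 0.87, 0.485 and 0.85.

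Of 20 tested Purkinje cell genes 2 rose and 0 fell, Aldoc, a glycolytic enzyme in stripes of Purkinje cells and in astrocytes (slope 0.048), and Pvalb, a calcium buffer (slope 0.027), and both lost their calls under quantile normalization. That count is near the 6.06% of all tested genes that rose. Of 19 granule cell genes 5 fell, among them Slc17a7, the vesicular glutamate transporter (slope -0.052), Calb2, a calcium-binding protein (-0.095), and Cbln1, which organises parallel fibre synapses (-0.057, limma adjusted p = 0.0409). The median slope of this list was -0.017 in CAC, -0.017 in mock and -0.00501 in NCAC. A slope lower in CAC was called by limma in 0 members against mock and 1 against NCAC. A higher one was called in 1 member against each. Leaving out 1 library gave 2 to 6 granule cell genes that fell, with 2 or 3 without replicate 1, 2 or 5 of 2 wk, 1, 3 or 5 of 4 wk, 1 of 6 wk or 1, 2, 6 or 7 of 8 wk, and the choroid plexus covariate gave 1. The call of Cbln1 was lost in 13 of the 22 fits that left out a library, and those of Cbln1 and Calb2 with the choroid plexus covariate. Ntf3, the neurotrophin 3 of granule cells, was at 10.8, 9.42, 8.42, 8.62 and 10.4 TPM at 2 wk and from 2.55 to 6.41 TPM with a median of 3.23 TPM at 8 wk, with no overlap (slope -0.22 ± 0.03, adjusted p = 9.79e-05).

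Necab3, a neuronal calcium-binding protein, had the smallest adjusted p between 2 and 8 wk (2.11e-05). It was at 45.8, 47.1, 36.6, 45.5 and 33.6 TPM at 2 wk, at 26.3, 19.7, 26.3, 24.9 and 31.7 TPM at 4 wk and at 22.4, 19.3, 31.0, 30.6 and 21.7 TPM at 6 wk. Its 8 wk libraries ran from 13.7 to 20.03 TPM with a median of 15.7 TPM. Every CAC library of 4, 6 and 8 wk lay below every CAC library of 2 wk. On the log2 scale the CAC mean of Necab3 differed from 2 wk by -0.675, -0.729 and -1.276 at 4, 6 and 8 wk. The mock mean differed by -0.562, -0.421 and -0.43, and the NCAC mean by 0.038, -0.254 and -0.134. Of 17 genes of neuronal maturation 4 fell, including Marcksl1, a cytoskeletal protein of growing neurites (slope -0.14), Dcx, a microtubule protein of young neurons (-0.039), and Syn1, a synaptic vesicle protein (-0.035). Leaving out 1 library gave 2 to 6 maturation genes that fell, with 2 without replicate 1, 3 or 4 of 2 wk or 6 of 8 wk, and the choroid plexus covariate gave 2. Serpinb1a, an inhibitor of leukocyte proteases, fell from a median of 22.7 to 7.58 TPM (slope -0.22). Other large falls were those of Col2a1, a cartilage collagen (-0.23), Sost, an inhibitor of Wnt signalling (-0.20), Prl2c2, a prolactin relative (-0.29), and Gkn3 (-0.22), all with medians under 10 TPM in every week, and Tmem252 (0.32) was among the largest rises.

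Of the housekeeping groups, ribosomal protein genes rose by small amounts. Of 45 tested cytosolic ribosomal protein genes 18 rose and 0 fell, with a median slope of 0.017, and Rpl32 rose from a median of 369 to 418 TPM (slope 0.029). Leaving out 1 library gave 10 to 20 ribosomal genes that rose, the fewest without replicate 6 of 8 wk, and the choroid plexus covariate gave 11. Of 38 nuclear oxidative phosphorylation genes 2 fell, including Cyc1 (slope -0.020), and of 18 chaperones 2 fell, including Hspd1 (-0.023). Such counts are near the 6.35% of all tested genes that fell and give no result about these groups. Mitochondrially encoded genes took 19.6 ± 0.967% of TPM at 2 wk (SD, n = 5) and 19.0 ± 1.31% at 8 wk (SD, n = 7), a difference of -0.638 percentage points that did not pass a two-sided exact permutation test (p = 0.378, 792 splits). Of 13 thyroid hormone response genes 2 rose, Thra, a thyroid hormone receptor (slope 0.039), and Klf9, and 1 fell, Mbp. Klf9 is also counted in the glucocorticoid list and Mbp in the myelin list.

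Marker lists of other cell types gave few calls. The choroid plexus list had 1 call, Cldn1 (slope 0.20, adjusted p = 0.0494), lost in 14 of the 22 fits that left out a library. Its mean log2 level had a lowest, median and highest library of 1.585, 4.059 and 4.636 at 2 wk, 3.376, 4.505 and 4.616 at 4 wk, 3.644, 3.85 and 4.586 at 6 wk and 3.776, 4.533 and 4.691 at 8 wk. With that level as a covariate, chosen after seeing the data, 848 genes were called in the trend and 238 between 2 and 8 wk. Described genes that lost their trend call in that fit were Serpina3n, Cebpb, Gfap, Zbtb16, Per1, Hif3a, Fbxo32, Acacb, Tnc, Srebf2, Kdr, Col1a1, Col3a1, Bst2, Calb2, Cbln1, Dcx, Gkn3, Sost, Cyc1 and Cldn1. Neutrophil markers summed to 5.64 to 17.9 TPM, with medians of 7.00 TPM at 2 wk and 13.5 TPM at 8 wk, and 0 of 3 tested were called by limma, with 0 at an unadjusted p under 0.05. Lymphocyte markers summed to 5.97 to 13.7 TPM, and Cd3e, Cd3d, Cd3g, Cd8a, Trbc2, Nkg7 and Gzmb were at 0 in most CAC libraries. The pigment cell genes Tyr and Mlana were at 0 in 20 and 17 of the 22 libraries and Dct and Pmel at most 1.07 and 1.58 TPM. Of the immediate early genes, 0 of 17 were called by limma, with 5 at an unadjusted p under 0.05 and a median slope of 0.075.

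**Figure D3:**
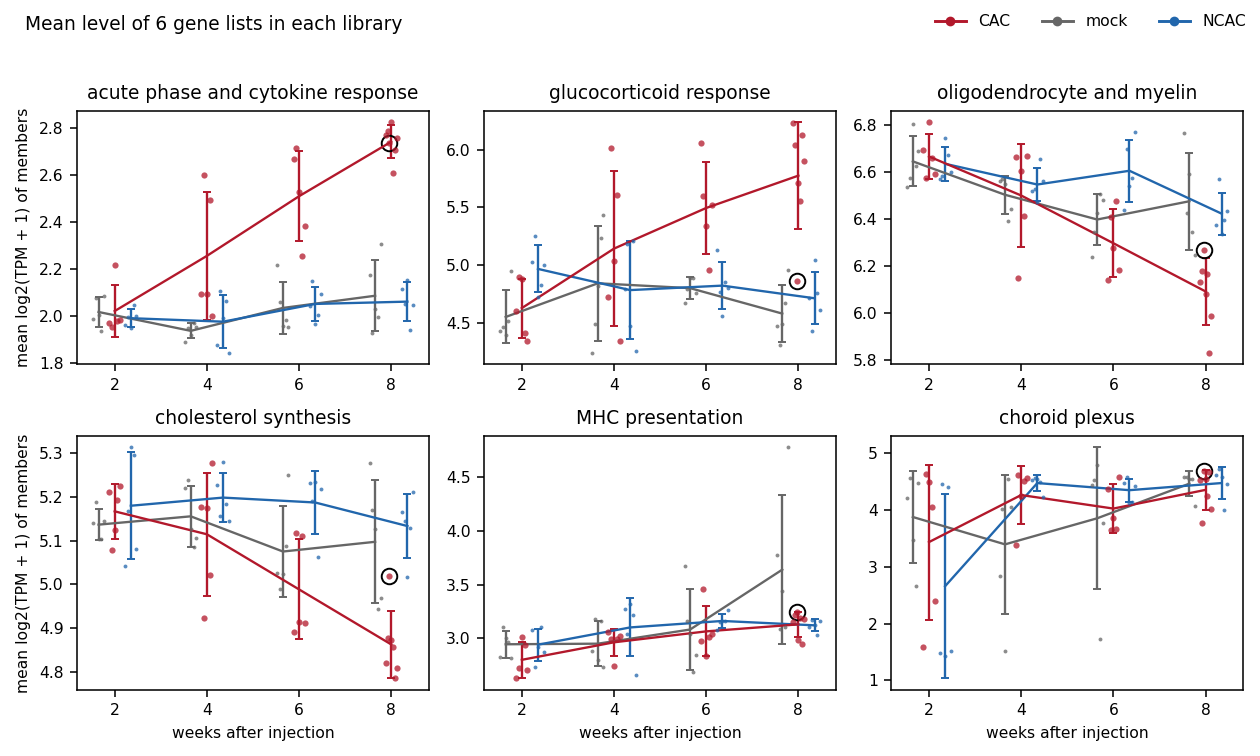
Mean log2(TPM + 1) over the members of 6 gene lists against weeks after injection, 1 point per library, with lines through group means and bars of 1 SD, in CAC (red), mock (grey) and NCAC (blue). The ring marks CAC replicate 3 of 8 wk, which lies among its group for acute phase genes and below it, at 4.87, for glucocorticoid-responsive genes.

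The same fit in the other treatments gave few calls. Limma called 0 genes in the mock trend (0%), with 1423 below 0.05 before adjustment, and 3 in the NCAC trend (0.0208%), with 2518. The 3 were Acap2 (slope -0.037), Acap3 (-0.034) and Cntnap4 (-0.046), all lower over weeks, and the slope of Cntnap4 in CAC was 0.058. The NCAC count was 138 without replicate 1 of 8 wk. Genes that rose in CAC had a median slope of 0.054 there, 0.00534 in mock and 0.00237 in NCAC. Those that fell had a median slope of -0.044 in CAC, -0.011 in mock and -0.00839 in NCAC, and 80.7% of them had a slope below 0 in mock, beside 58.4% of all tested genes. Of the genes that rose, 65.6% had a slope above 0 in mock, beside 41.6% of all tested genes. A called trend in one treatment and not in another does not show that they differ, so the difference of slopes was tested in a fit of all 62 libraries.

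The slope differed between CAC and mock in 334 genes (2.32%), higher in CAC in 220 (1.53%) and lower in 114 (0.792%), so that 65.9% of the called genes were higher. It differed between CAC and NCAC in 744 (5.17%), higher in CAC in 508 (3.53%) and lower in 236 (1.64%), so that 68.3% were higher. The shares higher were 54.5% and 52.9% under median-of-ratios scaling, 52.0% and 50.6% under quantile normalization, and 44.5% and 47.6% without mitochondrially encoded genes. Both tests use the same CAC libraries. The count against mock depended on single libraries. It was 94 to 210 without any one of CAC replicates 1, 3, 4 and 5 of 2 wk or 1, 2, 4 and 6 of 8 wk, or of mock replicates 1, 2, 4 and 5 of 2 wk or 1 and 3 of 8 wk, and 573 and 739 without CAC replicate 2 of 4 wk or 3 of 8 wk. The count against NCAC was 385 and 476 without NCAC replicate 2 of 2 or of 8 wk, and 1173 and 1320 without those last 2 CAC libraries. Tissue carried along also differed at the start, with a median Ttr at 2 wk of 14.6 TPM in NCAC, 3340 in CAC and 2620 in mock. The median slope of the choroid plexus list was 0.23 in NCAC, 0.12 in CAC and 0.11 in mock. For the meningeal fibroblast list, which includes Col1a1 and Col3a1, it was 0.043, 0.00532 and -0.015.

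**Figure D4:**
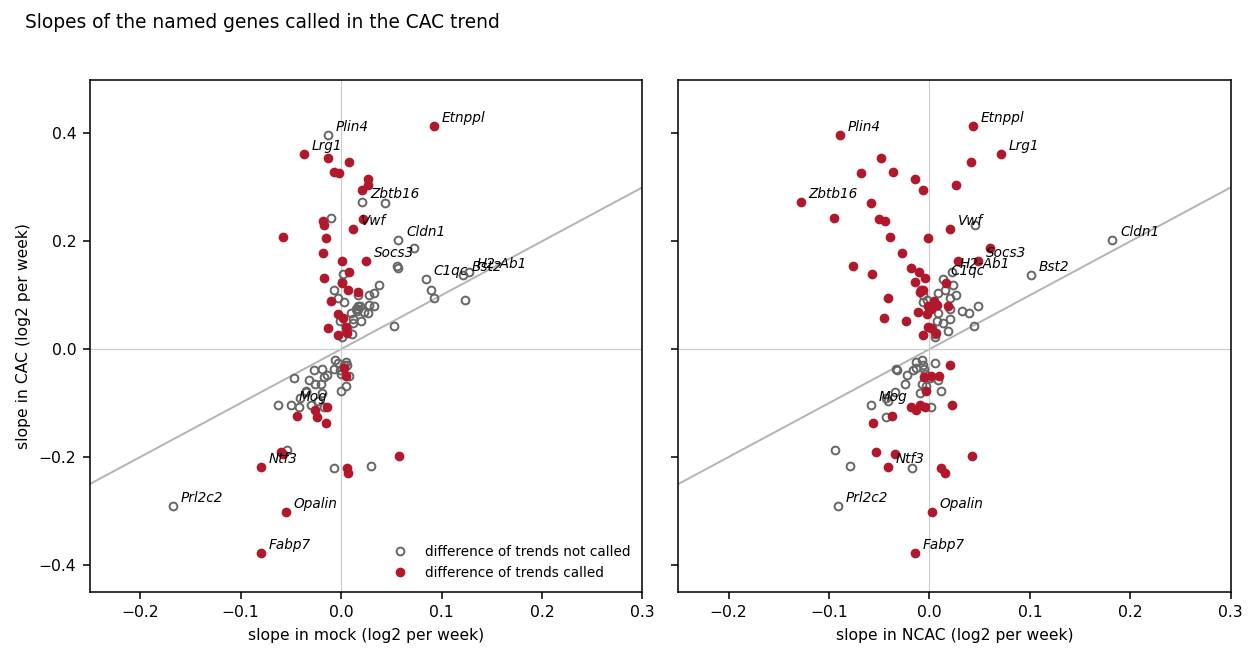
Slope in CAC against slope in mock (left) and in NCAC (right), in log2 units per week, for the named genes called in the CAC trend. Filled points have a called difference of slopes and open points do not, and the grey line marks equal slopes. Lrg1 and Fabp7 lie far from the line in both panels, and C1qc, H2-Ab1 and Bst2 lie near it in the mock panel.

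Acute phase and glucocorticoid genes differed between treatments in many members. In 8 of 19 acute phase genes and 13 of 24 glucocorticoid genes the slope was higher in CAC than in mock, and in 11 and 18 higher than in NCAC. At 2 wk the median library of the glucocorticoid list had a mean log2 level of 5.006 in NCAC, 4.61 in CAC and 4.468 in mock. In NCAC that median was 4.797, 4.806 and 4.717 at 4, 6 and 8 wk. The part of this higher NCAC start in the calls against NCAC was not tested. The slope of Lrg1 was higher in CAC by 0.40 than in mock (limma adjusted p = 1.81e-05) and by 0.29 than in NCAC (0.00171). At 8 wk Lrg1 was at 1.60 to 2.80 TPM in mock and 1.85 to 2.84 TPM in NCAC, below every CAC library of that week. For Fkbp5 the differences were 0.33 (adjusted p = 0.0197) and 0.40 (0.00353), and for Sgk1 0.20 (0.013) and 0.21 (0.00519). The slope of Plin4 differed from NCAC by 0.50 (0.0154) and from mock by 0.43 without passing the test (0.0573), and passed against mock without CAC replicate 3 of 8 wk (0.00561).

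Among glia and vessels the differences covered fewer members. The slope of Etnppl was higher by 0.33 than in mock (adjusted p = 0.0483) and that of Fabp7 lower by 0.31 (0.0337). Of 18 myelin genes 5 fell faster in CAC than in mock and 5 than in NCAC, among them Opalin by -0.25 against mock (0.0314). The slope of Mog, -0.10 in CAC, was -0.050 in mock and -0.058 in NCAC, and the differences did not pass (0.18 and 0.216). Of 23 cholesterol genes 3 fell faster than in mock and 6 than in NCAC, with Hmgcs1 at -0.086 against mock (0.0178). Vwf and Ly6c1 rose faster than in mock by 0.21 (3.36e-04) and 0.15 (2.71e-04). No difference of slopes was called by limma in the 17 microglial, 21 interferon or 12 antigen presentation genes. At an unadjusted p under 0.05 there were 5, 3 and 4 against mock and 4, 1 and 2 against NCAC. Of all 14399 tested genes, 2368 were at such a p against mock and 3000 against NCAC. The median differences of these 3 lists were -0.033, 0.00949 and -0.038 against mock and 0.013, 0.030 and 0.00221 against NCAC.

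**Figure D5:**
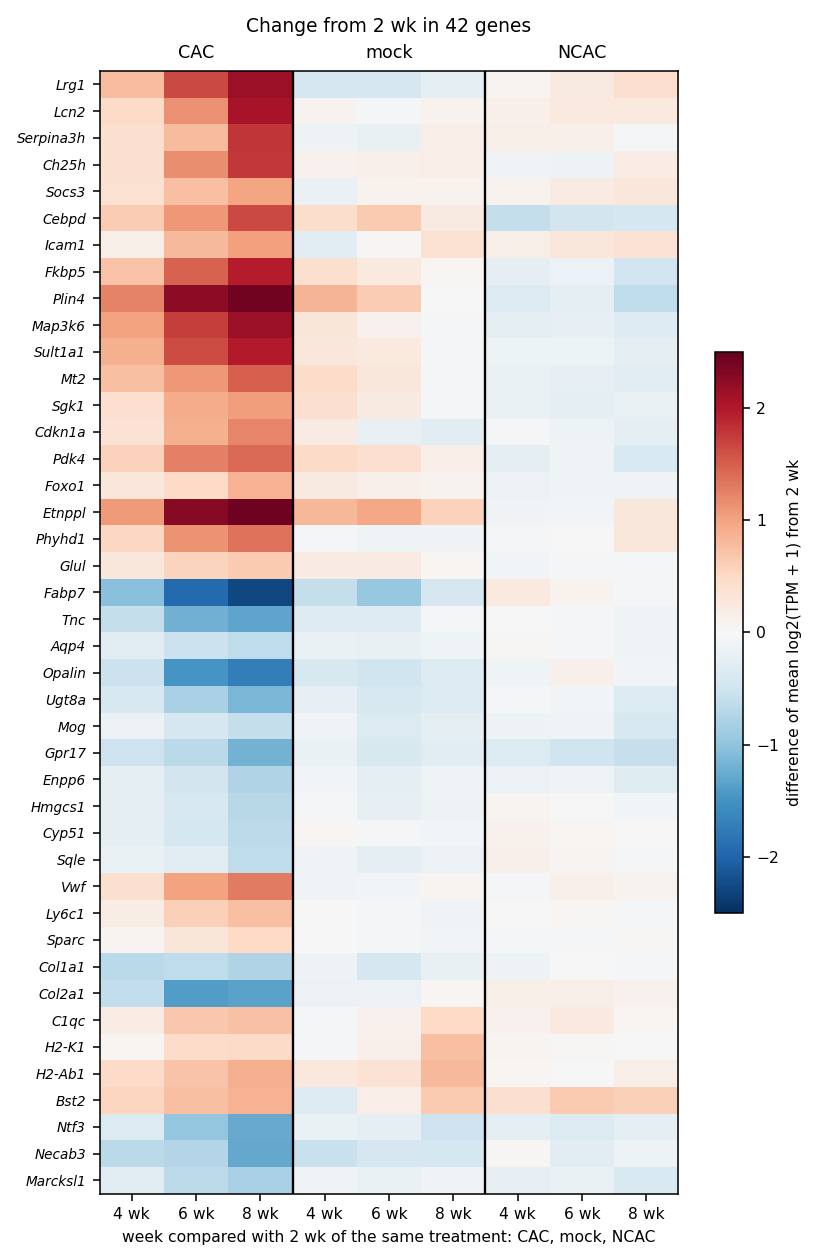
Difference of mean log2(TPM + 1) from 2 wk of the same treatment for 42 genes at 4, 6 and 8 wk in CAC, mock and NCAC, red where higher and blue where lower. The CAC columns deepen from 4 to 8 wk, as for Etnppl and Fabp7, and Bst2 and H2-Ab1 are red in the mock column of 8 wk too.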

How the data were processed

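The authors deposited 1 table of TPM per gene symbol for 62 libraries, per the file headers, and the genome build is mm10, per the submitters' processing notes. Biological replicates were prepared from total RNA with a stranded mRNA kit, per the labels' protocols (these also refer to LLC cells, which no sample received by its labels). Which aligner, quantifier and annotation were used is not given in the sources used here. Because TPM keeps no read depth, no counting interval can be given. From it, log2(TPM + 1) was fitted with limma 3.58.1 in R 4.3.3 (mean-variance trend) for the 14399 of 47643 symbols with a mean of at least 1 TPM. The mean was taken over all 62 libraries, so a gene can pass through the group where it is high. The CAC trend used week as a number in the 22 CAC libraries, steps used the 4 week means, and differences of slopes used 12 group means of all 62 libraries. P-values are two-sided and Benjamini-Hochberg adjusted over all genes tested. A fold change on the log2(TPM + 1) scale understates the change of low genes. The fits were tested on simulated data.

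Members and the 37 gene lists were chosen with earlier results of these data known. Named by rule were the 10 highest and 10 lowest called slopes and called differences between 2 and 8 wk, the 5 highest and 5 lowest in each step and each difference of slopes, the 3 of each list with the smallest p, and the 3 highest and lowest called slopes of mock and NCAC. Clone, pseudogene and predicted names were left out by the form of the name, which kept Serpina3h, annotated as a pseudogene. Other named members were chosen after their values were seen. Some genes these rules name are not reported here. Alternatives were other pseudocounts (0.1), filters, scalings, sample weights, a replicate block, other sets of groups or weeks, leaving out each library, and a choroid plexus covariate chosen after seeing the data. Gene spans came from GENCODE M21 and promoters from RefSeq (GRCm38.p6).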

Additional observations from a re-analysis of the deposited data

Results flagged for a closer look

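In some weeks of CAC, 1 library lay far from the others of its group for a described gene. This happened in 35 of 380 groups looked at, 9.21%. Chance alone gives about 1 in 20 in independent groups. These groups share the same libraries and their genes were chosen on these data, so the shares cannot be compared. Of the 35, 19 were replicate 3 of 8 wk. In that library the glucocorticoid-responsive genes were low, with Plin4 at 1.70 TPM, Hif3a at 4.18, Zbtb16 at 7.34, Sult1a1 at 10.7, Pdk4 at 12.2, Tsc22d3 at 74.7 and Mt1 at 996.6 TPM. Irs2, of the FoxO and atrophy list, was low at 52.3 TPM. The astrocyte genes Etnppl (9.99 TPM), Phyhd1 (12.1), Gjb6 (86.9) and Glul (962) and the genes Lrg1 (6.57) and Ly6c1 (62.8) were low there too. It was high for Col3a1 (3.38 TPM), Serpina3h (11.5), Hmgcs1 (121), Calb2 (676) and Cbln1 (1275). Its red blood cell markers summed to 20600 TPM, and their part in these values was not tested.

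The other libraries that lay apart did so for 1 to 3 described genes each. At 2 wk, replicate 3 was high for Lrg1 (6.64 TPM) and Ly6c1 (67.8), and replicate 4 low for Per1 (31.4). At 4 wk, replicate 2 was low for Mog (74.4 TPM) and Marcksl1 (31.5) and high for Abcb1a (27.4). At 6 wk, replicate 1 was high for Serpina3h (5.11 TPM) and Foxo1 (24.9), replicate 2 for Icam1 (7.20) and C1qa (101), and replicate 4 was low for Cebpd (4.02) and high for Cbln1 (1324). At 8 wk, replicate 2 was high for Gfap (181 TPM), replicate 6 low for Enpp6 (2.01), and replicate 7 high for C1qa (73.6) and Bst2 (26.5).

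The slope over weeks differed between CAC and another treatment by limma at an adjusted p under 0.05 in 61 of the 95 genes described. These genes were chosen in part by the same tests and values, so the count is a description. Of all 14399 tested genes, 2.32% differed from mock and 5.17% from NCAC. The difference was called against both mock and NCAC in 39, against mock alone in 4 and against NCAC alone in 18, and a call against one of them does not show that the other differs from it. The differences are given as CAC minus mock and then CAC minus NCAC, in log2 units per week. Among acute phase genes they were 0.40 and 0.29 for Lrg1, 0.34 and 0.30 for Lcn2, and 0.28 and 0.28 for Ch25h. They were 0.14 and 0.12 for Socs3, 0.038 and 0.044 for Stat3, 0.12 and 0.11 for Il1r1, and 0.091 and 0.12 for Osmr. For the pseudogene Serpina3h they were 0.27 and 0.29. Among glucocorticoid-responsive genes they were 0.33 and 0.40 for Fkbp5, 0.37 and 0.41 for Map3k6, 0.34 and 0.37 for Sult1a1, 0.22 and 0.21 for Mt1, 0.26 and 0.28 for Mt2, 0.16 and 0.14 for Tgm2, 0.20 and 0.21 for Sgk1, 0.27 and 0.25 for Cdkn1a, 0.067 and 0.066 for Klf9, and 0.23 and 0.30 for Pdk4. Among glial and cholesterol genes they were 0.33 and 0.38 for Etnppl, 0.11 and 0.12 for Glul, -0.31 and -0.37 for Fabp7, -0.25 and -0.31 for Opalin, -0.13 and -0.14 for Ugt8a, -0.086 and -0.099 for Hmgcs1, and -0.092 and -0.10 for Cyp51. In vessel and matrix genes they were 0.21 and 0.20 for Vwf, 0.15 and 0.14 for Ly6c1, 0.097 and 0.083 for Sparc, and -0.25 and -0.26 for Col2a1. In neuronal genes they were 0.029 and 0.033 for Pvalb, -0.14 and -0.18 for Ntf3, -0.14 and -0.16 for Necab3, -0.12 and -0.084 for Marcksl1, and 0.059 and 0.11 for Cntnap4. The rest called against both were 0.13 and 0.15 for Foxo1, -0.22 and -0.23 for Serpinb1a, -0.26 and -0.24 for Sost, 0.29 and 0.33 for Tmem252, and 0.024 and 0.023 for Rpl32. The difference was called against mock alone in Phyhd1 (0.25), Enpp6 (-0.10), Abcb1a (0.055) and Syn1 (-0.038). It was called against NCAC alone, with a higher slope in CAC, in Serpina3n (0.17), Cebpd (0.33), Il6ra (0.075), Icam1 (0.13), Plin4 (0.50), Zbtb16 (0.40), Tsc22d3 (0.20), Per1 (0.23), Hif3a (0.34), Irs2 (0.079), Gjb6 (0.14), Slc2a1 (0.14) and Thra (0.038), and with a lower one in Fbxo32 (-0.060), Aqp4 (-0.091), Sqle (-0.092), Col3a1 (-0.13) and Slc17a7 (-0.046). From 2 to 8 wk the NCAC means changed by -0.44 for Cebpd and -0.63 for Plin4, and by 0.36 for Icam1, on the log2 scale.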

How the results depend on the processing

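No described gene reversed direction in the CAC trend or between 2 and 8 wk under any alternative run. Counts moved more. With sample weights the trend called 2707 genes, 8 against 2 wk 2312, 8 against 6 wk 1, curvature 1, mock 4, NCAC 96, CAC minus mock 973 and CAC minus NCAC 1968. With all 12 groups fitted together these were 2760 for the trend, 2575 for 8 against 2 wk, 2 for 8 against 6 wk, 6 for mock and 6 for NCAC. In a fit to the 8 groups of the treatments compared, CAC minus mock was 78 and CAC minus NCAC 427. With 2, 4 and 6 wk alone the trend was 33, NCAC 0, CAC minus mock 1 and CAC minus NCAC 0. Without a filter 8 against 6 wk was 4 and CAC minus mock 156, and at a mean of at least 5 TPM 8 against 6 wk was 1. The NCAC count was 0 under median-of-ratios scaling, under quantile normalization and without mitochondrially encoded genes. The choroid plexus covariate gave 848 for the trend and 238 for 8 against 2 wk. Replicate numbers did not pair libraries: over 30 pairs with the same number in 2 weeks of CAC the correlation of deviations ran from -0.465 to 0.293 (median 0.0384), and in 5 of the 30 a library correlated best with its own number. A replicate block gave 875 for the trend, 450 for 8 against 2 wk, 0 for NCAC, 63 for CAC minus mock and 248 for CAC minus NCAC, and it takes replicates 6 and 7 of 8 wk out of the fit. Leaving out 1 library gave 1202 to 2448 for the trend, 712 to 2133 for 8 against 2 wk, 0 to 1 for 4 against 2 wk, 0 for 6 against 4 wk, 0 to 1 for 8 against 6 wk, 0 to 1 for curvature, 0 to 11 for mock, 0 to 138 for NCAC, 94 to 739 for CAC minus mock and 385 to 1320 for CAC minus NCAC. The cause was not tested in any case, except that fewer libraries or genes enter some fits. Depth is unknown, so low levels such as Lcn2 at 2 wk have an unknown counting error.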
